A study of Mus musculus with 8 samples.

Results

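Complement is a set of plasma and membrane proteins that mark and lyse targets, and 9 genes of it were followed in ribosome-bound RNA of mouse kidney endothelium. They were chosen by name: the components C3, C4b, Cfb and C2, the regulators Cfi, Cd55, Cd59a and Serping1, and the receptor C5ar1. Of these 9 genes, 8 were found among the 23930 amplicons of the deposited table, where each amplicon stands for 1 gene, and Cfb was not analysed here. A filter on low values kept 12820 genes of the table for testing and 5 of the complement genes, namely C3, C2, Serping1, Cd59a and Cd55. The other 3, C4b, Cfi and C5ar1, had too few reads to be tested and are given as reads.

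The 8 mice fell into 4 groups by genotype and injection. There were 2 wild-type (WT) mice given 250 µl of saline, 3 WT mice given 250 µg of lipopolysaccharide (LPS, a bacterial endotoxin) in 250 µl, 1 mouse labelled SOCS3iKEO given saline and 2 mice labelled SOCS3iKEO given LPS. The injection was intraperitoneal and kidneys were taken after 14 hours. In the mice labelled SOCS3iKEO the endothelium lacks Socs3 after induction, by the name of the line; Socs3 is an inhibitor of cytokine signalling through JAK and STAT proteins. All groups, WT included, are described as carrying the tagged ribosomal protein EGFP/Rpl10a and the tamoxifen-inducible, endothelial driver cdh5-CreERT2, so the tag is placed in cells in which the Cdh5 promoter had been active. The labels give no age and no sex for single mice, and the extraction text describes lysis of minced kidney without the affinity step. Each library is 1 mouse, and with 1 library in the SOCS3iKEO saline group every comparison that uses it takes its spread from the other groups.

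The complement cascade starts from antibody, from sugar patterns or by slow spontaneous activation, and all routes meet at the cleavage of C3. C2 and C4 form the convertase of the classical and lectin routes, and factor B forms that of the alternative route. Downstream, C5a signals through its receptor C5ar1 and the terminal proteins assemble a pore in the membrane. Host cells are protected by regulators: Serping1 (C1 inhibitor) blocks the proteases that start the cascade, Cfi cuts C3b and C4b, Cd55 speeds the decay of convertases, and Cd59a stops the assembly of the pore. Liver cells make most plasma complement, and endothelium is known to make C3 and C1 inhibitor in inflammation and to carry the membrane regulators.

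The promoters are shown for C3, the component with the largest change, for Cd59a, whose direction depended on the scaling, and for Cd55, which was called in no comparison. They are RefSeq sequences of GRCm38.p6, from 250 bases before to 50 bases after the gene's start, read on the gene's strand, and 4 of the 9 genes had one in the table used. Capitals mark matches to a motif.
C3: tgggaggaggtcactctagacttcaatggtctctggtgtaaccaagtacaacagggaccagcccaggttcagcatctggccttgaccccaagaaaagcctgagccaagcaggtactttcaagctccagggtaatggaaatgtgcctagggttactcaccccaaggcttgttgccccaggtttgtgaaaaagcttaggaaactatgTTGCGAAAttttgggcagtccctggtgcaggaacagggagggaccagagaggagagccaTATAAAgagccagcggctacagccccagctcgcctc
Cd59a: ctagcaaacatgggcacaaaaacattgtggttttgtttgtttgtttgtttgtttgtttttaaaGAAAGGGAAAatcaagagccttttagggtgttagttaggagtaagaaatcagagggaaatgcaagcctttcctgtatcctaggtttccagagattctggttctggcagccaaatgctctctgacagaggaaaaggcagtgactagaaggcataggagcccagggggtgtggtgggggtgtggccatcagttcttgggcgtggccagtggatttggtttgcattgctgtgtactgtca
Cd55: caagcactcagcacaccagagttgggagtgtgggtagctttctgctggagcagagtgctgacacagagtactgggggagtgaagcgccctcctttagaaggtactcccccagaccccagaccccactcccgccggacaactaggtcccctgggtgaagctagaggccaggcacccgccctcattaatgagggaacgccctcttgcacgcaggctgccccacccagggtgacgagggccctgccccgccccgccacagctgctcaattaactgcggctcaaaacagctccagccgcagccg
The C3 stretch is chr17:57228087-57228386 (minus strand), that of Cd59a chr2:104095551-104095850 (plus strand) and that of Cd55 chr1:130462695-130462994 (minus strand). Both strands were searched for TTGCNNAA (C/EBP), TTCNNNGAA (GAS, the STAT motif), the interferon motif ISRE (GAAA, any 2 bases, then GAAA), the TATA box (letters TATAAA) and the kB consensus of NF-kB. In C3 the C/EBP letters lay at -45 to -38 from the start and the TATA letters at 15 to 20, and in Cd59a the ISRE letters lay at -187 to -178. No matches overlapped, and Cd55 and C5ar1 held none of the 5 motifs. Of 32851 promoters of this length, 10.8% held the C/EBP letters, 8.3% GAS, 3.44% ISRE, 13.6% TATA and 8.46% the kB consensus, so a match is a description of the letters and not of binding.

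Libraries held 7093794 to 14877519 reads on the panel. Values are reads per 1000000 panel reads (RPM), and scaled values are RPM divided by a TMM factor, a scaling that sets most genes equal between libraries. These factors were 1.25 to 1.26 after saline, 0.994 to 1.07 in WT after LPS and 0.671 to 0.709 in SOCS3iKEO after LPS, so the scaling raised values in the last group against all others. Without it, the median log2 fold change of all genes moved by -0.24 for the LPS effect in WT mice, by -0.66 for that in SOCS3iKEO mice and by -0.41 for the genotypes after LPS. Results are therefore given on both scales where they part. The Socs3 amplicon had 2 to 9 reads after saline, 17 to 118 in WT after LPS and 20 to 25 in SOCS3iKEO after LPS. Its position relative to the deleted part is not given, so it does not check the labels, and the genotype names are those of the labels. Reads of Y-linked genes were 3320 to 3987 in WT saline library 2 and in WT LPS libraries 2 and 3, and 1 to 3 in the other 5 libraries. The animal numbers in the labels form 2 runs, one with WT saline and SOCS3iKEO LPS and one with WT LPS and SOCS3iKEO saline. Whether they mark separate experiments is not stated, and a difference between the runs cannot be told apart from LPS within a genotype, from genotype after LPS or saline, or from the interaction, which is the contrast of the 2 runs. All 10 endothelial markers were above 3 reads in every library. Their summed level was 10173 to 11115 RPM after saline, 6157 to 7984 RPM in WT after LPS and 4122 to 5622 RPM in SOCS3iKEO after LPS. These sums, and those of other marker lists below, are RPM as deposited, and the scaling raises SOCS3iKEO LPS against the other groups. Members differed: Cdh5, the gene of the driver's promoter, was at 1003 and 1362 RPM in SOCS3iKEO LPS against 312 to 367 RPM in the other libraries, and Esam at 505 and 556 RPM against 307 to 436 RPM. Most went the other way as deposited. Kdr was at 31.4 and 147 RPM against 316 to 523 RPM, and Egfl7 at 106 and 230 RPM against 790 to 1187 RPM. Tek, Emcn, Eng and Plvap also lay below all other libraries, and Pecam1 and Tie1 overlapped with them. In such bulk samples, fewer cells of a type and less RNA per cell cannot be told apart.

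Among the components, C3 rose after LPS in both genotypes. C3 (chr17:57203970-57228136, mm10), the protein at which all routes meet, had scaled levels of 1.94 and 3.82 RPM in WT saline, 23.3, 16.6 and 25.2 RPM in WT LPS, 1.92 RPM in SOCS3iKEO saline, and 50.5 and 51.9 RPM in SOCS3iKEO LPS. Every LPS library lay above every saline library, and both SOCS3iKEO LPS libraries lay above all 3 of WT LPS. Group means were 2.88 ± 1.33 RPM (SD, n = 2) in WT saline, 21.7 ± 4.51 RPM (SD, n = 3) in WT LPS and 51.2 ± 0.995 RPM (SD, n = 2) in SOCS3iKEO LPS. The mean after LPS was thus 7.53 times that after saline in WT and 26.6 times in SOCS3iKEO, or 6.11 and 14.8 times in RPM as deposited. By limma across all genes tested, the log2 fold change was 2.57 (SE 0.29, adjusted p = 0.00107) in WT and 4.16 (SE 0.40, adjusted p = 1.86e-04) in SOCS3iKEO, and C3 stayed past the threshold of 0.05 under all alternatives run.

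Between genotypes after LPS, C3 was higher in SOCS3iKEO by a log2 fold change of 1.22 (SE 0.29, adjusted p = 0.00785). As deposited, the libraries still did not overlap, at 17.7 to 25.4 RPM against 33.9 and 36.8 RPM, but the log2 difference was 0.67 with an adjusted p of 0.0778. The difference between the LPS effects of the genotypes was 1.59 (95% interval 0.48 to 2.70, adjusted p = 0.0525), or 1.06 as deposited (adjusted p = 0.137), and did not pass. It passed with a pseudocount of 10 (adjusted p = 0.0379) and without WT LPS library 1 (adjusted p = 0.0484). After saline the lone SOCS3iKEO library, at 1.92 RPM, lay next to WT saline library 1 at 1.94 RPM.

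C2 (chr17:34862604-34898265), the protease part of the classical convertase, was a low gene with 3 to 23 reads per library. Its scaled levels were 0.278 and 0.162 RPM in WT saline, 1.26, 1.39 and 0.361 RPM in WT LPS, 1.02 RPM in SOCS3iKEO saline and 3.89 and 2.30 RPM in SOCS3iKEO LPS. Both SOCS3iKEO LPS libraries were the highest of the 8, and the SOCS3iKEO saline library lay within the range of WT LPS. After LPS the log2 fold change of SOCS3iKEO against WT was 1.05 (SE 0.30, adjusted p = 0.0181), and 0.65 as deposited (adjusted p = 0.0888). That call was also lost with edgeR (adjusted p = 0.0574), with a term for Y-linked reads (0.102), with no filter on low values (0.0501), without WT LPS library 3 (0.0568) and without SOCS3iKEO LPS library 1 (0.131). LPS against saline gave 0.67 in WT (SE 0.30, adjusted p = 0.163) and 0.99 in SOCS3iKEO (SE 0.41, adjusted p = 0.0752), neither past the threshold. In SOCS3iKEO it passed with a pseudocount of 10 (adjusted p = 0.0462) and without SOCS3iKEO LPS library 2 (adjusted p = 0.0425). C4b, the mouse C4 gene of the same convertase (chr17:34728380-34743882), had 0 to 3 reads in every library, at or under the floor of 3 reads (0.202 to 0.423 RPM), too few reads to read a difference from. With no filter on low values C4b passed between genotypes after LPS (log2 0.27, adjusted p = 0.0245), a value that rests on 0 to 1 read per WT library and on 1 and 3 reads in SOCS3iKEO. C4b has a near-identical relative, C4a, with 0 to 2 reads, and reads could be split between them.

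**Figure D1:**
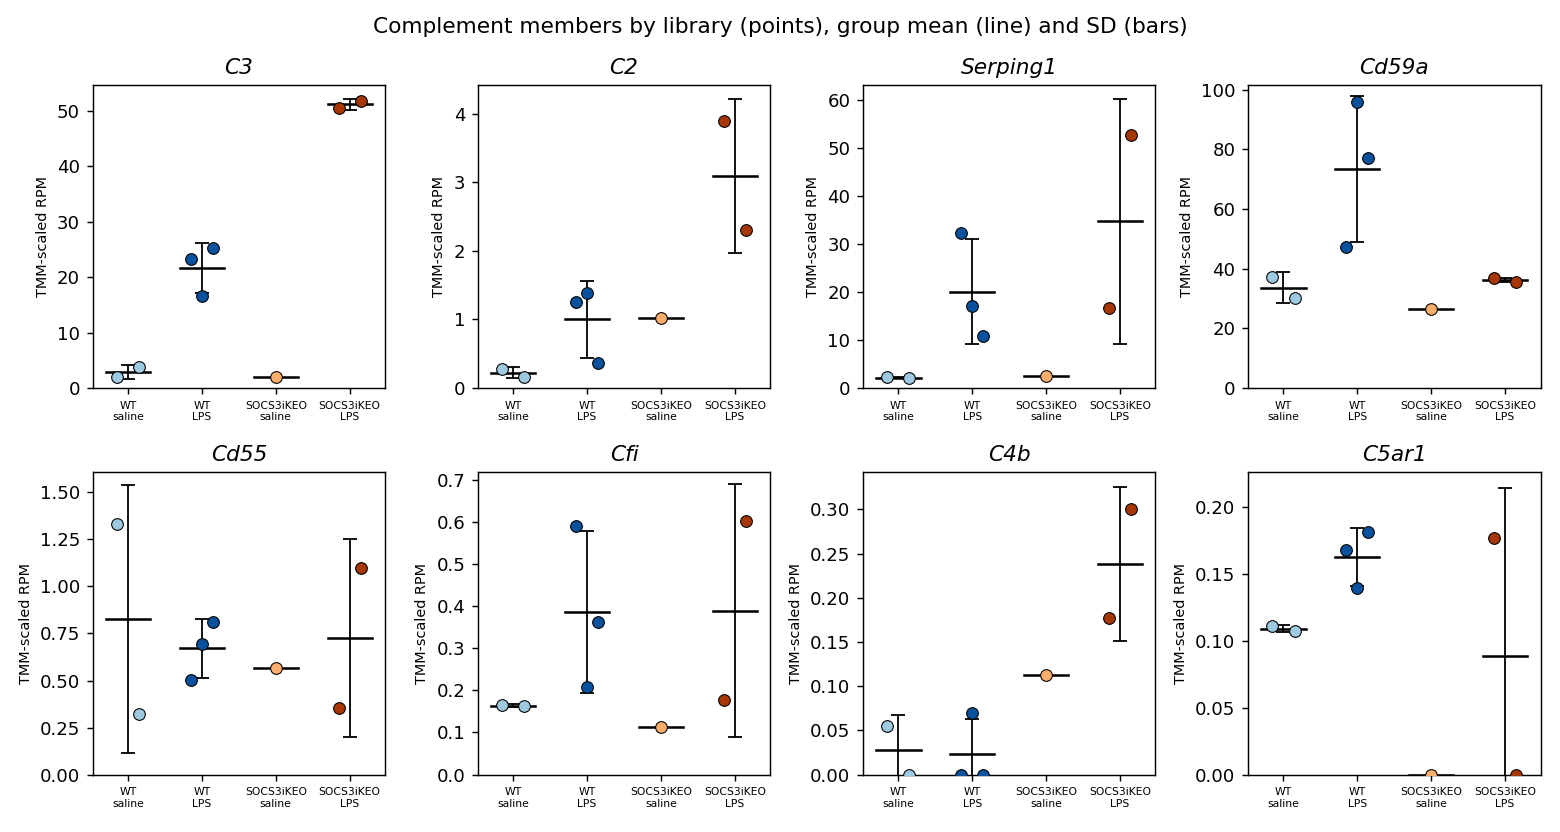
Scaled RPM (linear axis from 0, 1 panel per gene, axes differ) of the 8 complement genes with a row in the 8 libraries by group. Points are libraries, lines group means and bars SD, cut at 0; the SOCS3iKEO saline group has 1 library and no bar. C3 in SOCS3iKEO LPS sits at 50.5 and 51.9 RPM, above WT LPS at 16.6 to 25.2 RPM, and Cd59a peaks in WT LPS.

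Of the regulators, Serping1 rose after LPS in both genotypes, Cd59a rose in WT on the scaled values but not as deposited, and Cd55 did not pass in any comparison. Serping1 (chr2:84765387-84775444), the inhibitor of C1r, C1s and the lectin-route proteases, had scaled levels of 2.17 and 2.15 RPM in WT saline, 32.2, 17.1 and 10.8 RPM in WT LPS, 2.49 RPM in SOCS3iKEO saline, and 16.6 and 52.7 RPM in SOCS3iKEO LPS. All LPS libraries lay above all saline libraries, while the genotypes overlapped after LPS. The log2 fold change was 2.60 in WT (SE 0.52, adjusted p = 0.0116), with means of 2.16 ± 0.00926 RPM (SD, n = 2) and 20.0 ± 11 RPM (SD, n = 3). It was 3.14 in SOCS3iKEO (SE 0.69, adjusted p = 0.00642), with a mean of 34.7 ± 25.5 RPM (SD, n = 2) after LPS, and as deposited it was 2.40 in both genotypes. In WT the call was lost without WT saline library 1 (adjusted p = 0.0993), without library 2 of that group (0.0825), with a pseudocount of 10 (0.0602) and with no filter (0.0702), and in SOCS3iKEO it held under all 13 alternatives. Between genotypes after LPS the log2 difference was 0.68 (SE 0.52, adjusted p = 0.296) and did not pass.

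Cd59a (chr2:104095801-104115354), the membrane inhibitor of the pore, was well detected, with 208 to 1383 reads per library. Scaled levels were 37.3 and 30.0 RPM in WT saline, 47.2, 96.0 and 77.1 RPM in WT LPS, 26.6 RPM in SOCS3iKEO saline and 36.7 and 35.6 RPM in SOCS3iKEO LPS. Libraries 2 and 3 of WT LPS were the highest, and both hold Y-linked reads, as does WT saline library 2 at 30.0 RPM. In WT the log2 fold change was 1.05 (SE 0.29, adjusted p = 0.0398), but as deposited it was 0.77 (adjusted p = 0.103) and the groups overlapped, at 37.4 and 47.1 RPM against 47.0 to 102 RPM. The call was also lost without either WT saline library (adjusted p = 0.153 and 0.238), without WT LPS library 2 or 3 (0.105 and 0.113) and with no filter (0.113).

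In SOCS3iKEO, LPS gave Cd59a a log2 change of 0.43 on scaled values (SE 0.39, adjusted p = 0.394) and of -0.39 as deposited (adjusted p = 0.444), so its direction turned with the scaling and neither value passed. After LPS it was lower in SOCS3iKEO than in WT on both scales, by a log2 fold change of -0.94 (SE 0.29, adjusted p = 0.0233) and of -1.49 as deposited (adjusted p = 0.00275). Both SOCS3iKEO libraries lay below all 3 WT libraries, at 24.7 and 25.3 RPM against 47.0 to 102 RPM as deposited. With a term for Y-linked reads the difference was -0.69 (adjusted p = 0.139). The call was lost too with no filter (0.0588), without WT LPS library 2 (0.0837) or 3 (0.0714) and without SOCS3iKEO LPS library 1 (0.0768) or 2 (0.0802). The difference between the LPS effects was -0.62 (adjusted p = 0.383).

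Cd55 (chr1:130439027-130462744), which speeds the decay of convertases, had 2 to 24 reads per library. Its scaled levels ran from 0.323 to 1.33 RPM in WT saline, from 0.505 to 0.812 RPM in WT LPS and from 0.353 to 1.10 RPM in SOCS3iKEO LPS, with 0.566 RPM in SOCS3iKEO saline, and all groups overlapped or lay inside one another. LPS gave a log2 change of -0.08 in WT (SE 0.30, adjusted p = 0.891) and of 0.11 in SOCS3iKEO (adjusted p = 0.848). The latter was -0.20 as deposited, so no direction holds. Cfi (chr3:129835884-129875332), the protease that cuts C3b and C4b, had 3 reads in both WT saline libraries. After LPS it had 7, 3 and 4 reads in WT and 1 and 6 in SOCS3iKEO, whose saline library had 1. The LPS libraries of WT lay above those of saline in RPM, by 0 to 4 reads at the floor or just over it, and the genotypes overlapped after LPS. These reads are too few to read a difference from. The receptor C5ar1 (chr7:16246743-16259540), which binds C5a and is carried mainly by myeloid cells, had 0 to 2 reads in every library. Its neighbours in role on the list, C5ar2 and C3ar1, had 0 to 2 and 1 to 19 reads.

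**Figure D2:**
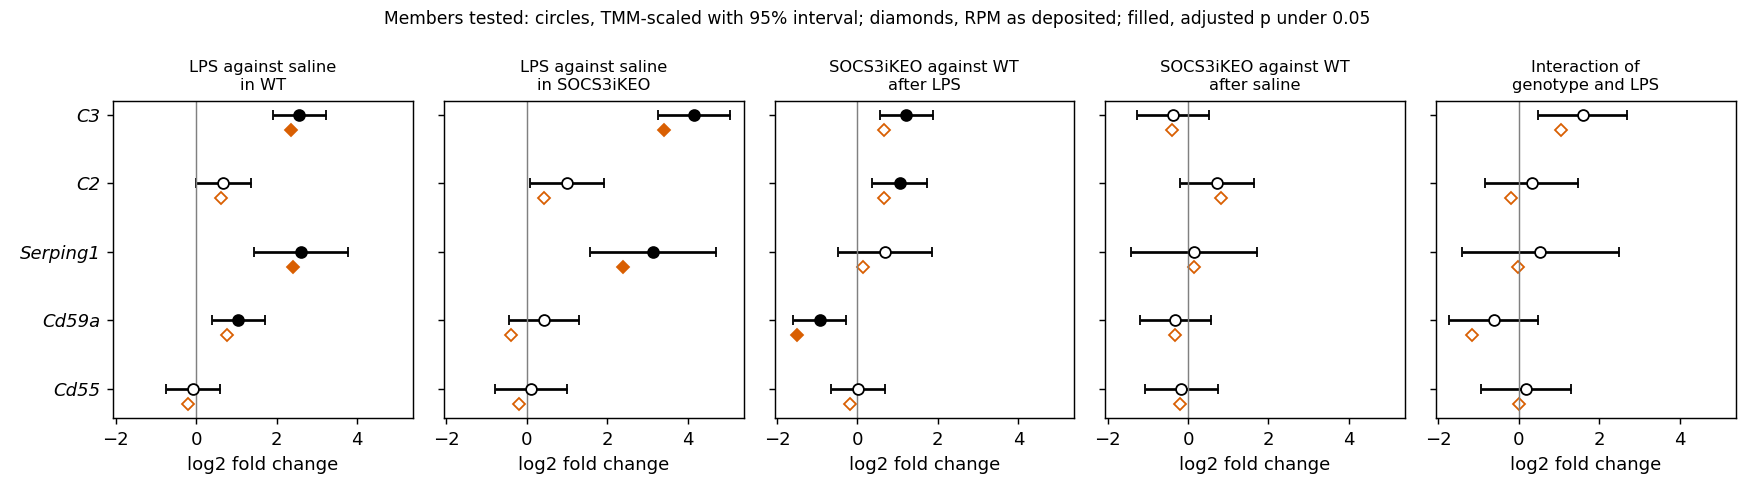
Log2 fold changes (linear axis) of the 5 complement genes tested in the 5 comparisons. Circles are scaled values with 95% intervals from limma, diamonds RPM as deposited, and filled symbols have an adjusted p under 0.05. C3 and Serping1 lie right of 0 after LPS in both genotypes on both scales, and for LPS in SOCS3iKEO Cd59a lies at 0.43 scaled and at -0.39 as deposited.

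Over the 5 complement genes tested, 3 rose and 0 fell after LPS in WT (C3, Serping1 and Cd59a), beside 15.6% of all genes called (6.85% higher and 8.79% lower). Without WT saline library 1 or 2, 1 of the 5 was called in each case, C3, and 348 and 564 of all genes. As deposited, 2 rose, and all genes split into 586 higher and 2366 lower in place of 878 and 1127. In SOCS3iKEO, 2 rose and 0 fell beside 44.1% of all genes called (20.2% higher and 23.9% lower), with 2 as deposited as well, and the split was 2589 and 3060, or 1219 and 5687 as deposited. Between genotypes after LPS, 2 were higher and 1 lower in SOCS3iKEO beside 50.7% called (24% higher and 26.7% lower), so 3 of 5 is near the background there. Without WT LPS library 3 or SOCS3iKEO LPS library 1, 1 of the 5 was called. As deposited these were 0 and 1, and all genes split 1721 and 5346 in place of 3076 and 3427. The median log2 fold change over the 5 genes was 1.05 in WT, 0.99 in SOCS3iKEO and 0.68 between genotypes after LPS, against -0.02, -0.08 and -0.04 over all genes. As these 5 are those with enough reads, the counts do not speak for all 9, and the comparisons share libraries.

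After saline, 0 of 5 differed between genotypes by limma, beside 0% of all genes called. The unadjusted p was under 0.05 for 0 of the 5 and for 423 of all genes, and edgeR also called 0. For the difference between the LPS effects 0 of 5 were called, beside 18.5% of all genes (8.96% higher and 9.49% lower), with an unadjusted p under 0.05 for 1, C3, and 0 called by edgeR. In levels, the order of C3 after LPS was WT below SOCS3iKEO. After saline the lone SOCS3iKEO library, which gives no spread, was at 1.92 RPM, below WT saline at 1.94 and 3.82 RPM. The order of Serping1 was saline below LPS with no order of genotypes.

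Other complement genes were taken from a list of 55 by role, of which 46 were in the table and 20 passed the filter. After LPS in WT, 3 of these 20 rose and 1 fell, beside 15.6% of all genes called, with a median log2 fold change of -0.31. In SOCS3iKEO 6 rose and 1 fell, beside 44.1% of all genes, with a median of 0.28. The first share is near the background and the second below it, and as deposited the counts were 2 and 3 in WT and 4 and 2 in SOCS3iKEO. The membrane regulators Cr1l and Thbd, the receptors and the inhibitor clusterin account for the rises.

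Of the membrane regulators, Cr1l (Crry, a rodent protein that controls the C3 convertase) had scaled levels of 37.6 ± 4.53 RPM (SD, n = 2) in WT saline, 25.1 RPM in SOCS3iKEO saline, 39.1 ± 3.47 RPM (SD, n = 3) in WT LPS and 69.5 ± 1.81 RPM (SD, n = 2) in SOCS3iKEO LPS. It rose in SOCS3iKEO by a log2 fold change of 1.43 (adjusted p = 0.00275), which was past the threshold on the scaled values but not as deposited (adjusted p = 0.0941). Thrombomodulin (Thbd), a cofactor of thrombin that also speeds C3b inactivation, rose by 1.20 in WT (adjusted p = 0.0379) and by 2.01 in SOCS3iKEO (adjusted p = 0.0062). In SOCS3iKEO the rise was 1.16 as deposited (adjusted p = 0.0479). The WT call was lost as deposited (0.0731), with no filter, and without WT saline library 1 (0.306) or 2 (0.0837) and WT LPS library 1 (0.0878) or 3 (0.105). Susd4, a membrane inhibitor of convertases, fell in both genotypes. Its levels were 10.1 and 10.5 RPM in WT saline and 1.26, 2.85 and 3.61 RPM in WT LPS, a log2 change of -1.72 (adjusted p = 0.0122), and 13.8 RPM against 5.48 and 3.30 RPM in SOCS3iKEO, a change of -1.49 (adjusted p = 0.0287). Leaving out WT saline library 1 or 2 gave adjusted p of 0.102 and 0.0898 in WT, and leaving out SOCS3iKEO LPS library 2 gave 0.0898 in SOCS3iKEO, as leaving out WT saline library 2 gave 0.0505. The SOCS3iKEO call was also lost with a pseudocount of 0.1 (0.054) and with no filter (0.0713), and the WT call with no filter (0.0567).

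Of the receptors, Itgb2, the beta chain of complement receptors 3 and 4 on leukocytes, rose in WT from 3.00 and 2.42 RPM to 13.9, 10.8 and 13.7 RPM, a log2 change of 1.89 (adjusted p = 0.00213). In SOCS3iKEO it was at 1.81 RPM after saline and at 2.65 and 2.30 RPM after LPS, below all WT LPS libraries, and the genotypes differed after LPS by -1.98 (adjusted p = 3.73e-04). Cd93, a membrane lectin once proposed as a C1q receptor, rose by 1.28 in WT (adjusted p = 0.0029) and 1.85 in SOCS3iKEO (adjusted p = 6.50e-04). As deposited the rises were 0.99 in WT (0.00589) and 1.00 in SOCS3iKEO (0.00697). The WT value missed the threshold without WT saline library 1 (0.052). C1qbp, a mainly mitochondrial protein that can bind C1q, rose by 1.56 in SOCS3iKEO (adjusted p = 0.0125, 0.15 as deposited and 0.0517 with no filter). In WT its change was 0.97 and not called (adjusted p = 0.0574), though every WT LPS library lay above every WT saline library. As deposited, the mean after LPS was 1.66 times that after saline in both genotypes. The difference between the LPS effects of C1qbp was 0.59, or 0.03 as deposited, and not called. The alpha chain that pairs with Itgb2 in complement receptor 3, Itgam, was named after its values were seen. It had 0 reads in SOCS3iKEO saline and 17 and 7 after LPS. In WT it had 2 to 6 reads after saline and 11 to 13 after LPS, with every LPS library higher on both scales. The WT log2 change was 0.70 (adjusted p = 0.187), and the difference between the LPS effects was 0.68, neither called. With 0 to 6 reads after saline, Itgam passed the filter (minimum count 10) through LPS libraries alone. In SOCS3iKEO it was called higher (adjusted p = 0.0338, and 0.0419 as deposited), under 7 of 13 alternatives with adjusted p up to 0.0798. Its size there depends on the pseudocount because of the 0. The call was lost without WT saline library 1 (0.0536) or 2 (0.0532), WT LPS library 3 (0.0524) or SOCS3iKEO LPS library 1 (0.0791). The summed level of the 9 neutrophil markers was 0.846 to 1.14 RPM after saline, 4.74 to 9.54 RPM in WT LPS and 16.0 to 31.0 RPM in SOCS3iKEO LPS, with Cxcr2 at 0 in every library. Between genotypes after LPS this sum ran opposite to Itgb2, but it rested mainly on S100a8 and S100a9. S100a8 was at 7.12 and 5.32 RPM in SOCS3iKEO LPS and at 0.888 to 3.77 RPM in WT LPS. S100a9 was at 18 and 6.31 RPM against 2.37 to 4.63 RPM. In LPS libraries 3 to 5 of the 9 were above 3 reads, and Ly6g and Mpo had at most 2 reads. The 11 macrophage and dendritic markers, which include C1q genes, summed to 7.92 to 12.5 RPM after saline, 4.07 to 8.63 RPM in WT LPS and 7.17 to 11.4 RPM in SOCS3iKEO LPS. The part of these cells in the levels of Itgb2, C3 or Serping1 was not tested.

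Clusterin (Clu), a fluid-phase inhibitor of the pore, rose by 3.07 in SOCS3iKEO (adjusted p = 0.0102, and 0.0536 with no filter). Its levels were 30.8 and 15.6 RPM in WT saline, 127, 26.2 and 38.9 RPM in WT LPS, 24.7 RPM in SOCS3iKEO saline and 218 and 211 RPM in SOCS3iKEO LPS. WT LPS library 1 stood apart from the other 2 of its group. Between genotypes after LPS, 7 of the 20 were higher and 1 lower in SOCS3iKEO, with a median of 0.60, or 3 and 1 as deposited, a share below the 50.7% of all genes called. The largest were Clu (2.06, adjusted p = 0.0137), the carboxypeptidase Cpn1 that trims C3a and C5a (1.97, adjusted p = 0.00408), C8a (1.36, adjusted p = 0.0202) and C8g (0.89, adjusted p = 0.0134) of the pore, and C1qbp (1.06, adjusted p = 0.0156), beside Itgb2. C8a had 1 to 33 reads and C8g 0 to 12, C8a passed under 8 of 15 alternatives and was lost without WT LPS library 2 (0.0658) or 3 (0.0599) or SOCS3iKEO LPS library 2 (0.104), and C8g was lost with the Y-linked term (0.0775) and without SOCS3iKEO LPS library 1 (0.0903). Clu was lost with no filter (0.0691) and without SOCS3iKEO LPS library 1 (0.0747) or 2 (0.0516). C1qbp was lost as deposited (0.169), with no filter (0.0637), with the Y-linked term (0.105) and without SOCS3iKEO LPS library 2 (0.0842). On scaled values no LPS effect of Cpn1, C8a or C8g was called. In that order the log2 changes were -0.90, -0.43 and -0.59 in WT and 0.79, 0.48 and 0.51 in SOCS3iKEO. C8g had 8 to 12 reads in WT saline and 0 to 1 in WT LPS, and was called lower as deposited (-0.71, adjusted p = 0.044). After saline Cpn1 was at 3.77 and 9.5 RPM in WT, above all WT LPS libraries, and at 7.58 RPM in SOCS3iKEO. Cpn1 ran from 1.87 to 3.37 RPM in WT LPS and from 9.81 to 19.4 RPM in SOCS3iKEO LPS, or from 2 to 3.36 RPM and from 6.95 to 13 RPM as deposited. Summed tubule markers were higher in SOCS3iKEO LPS too, but not each marker. Slc22a6, Slc27a2 and Kcnj1 overlapped between genotypes after LPS as deposited. As deposited, the 8 proximal tubule markers summed to 132 to 278 RPM in WT LPS and 416 to 871 RPM in SOCS3iKEO LPS, against 431 to 777 RPM after saline. The part of tubule RNA was not tested.

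**Figure D3:**
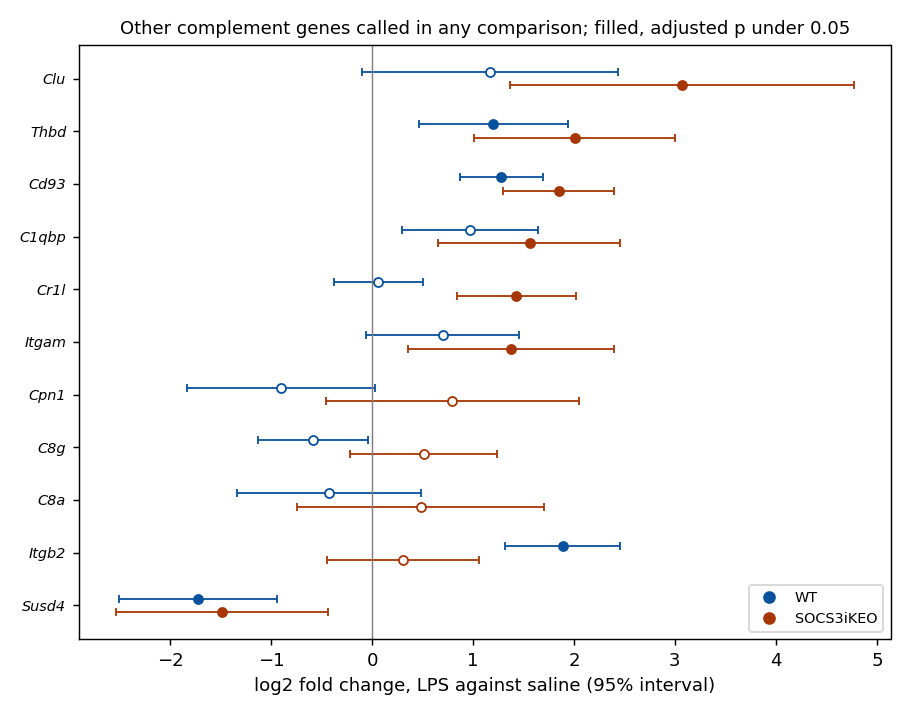
Log2 fold changes after LPS (linear axis, scaled values, with 95% intervals from limma) of the 11 other complement genes called in at least 1 comparison, of 20 tested, in WT and SOCS3iKEO; filled symbols have an adjusted p under 0.05. Cr1l and Itgb2 show the genotypes apart: Itgb2 at 1.89 is filled in WT alone and Cr1l at 1.43 in SOCS3iKEO alone.

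The genes whose levels were most like each tested member over the 8 libraries were found by Pearson's r of log2(scaled RPM + 1), among genes with an SD of at least 1. For C3 these were Tgm2 (0.989), Ehd1 (0.986) and Csf3 (0.986). Serping1 was nearest to 1700017B05Rik (0.994), Ms4a4d (0.986) and Crispld2 (0.984), and Cd59a to Rab32 (0.955), Hif3a (0.942) and Pilra (0.937). For C2 the first was Gadd45b (0.938), and for Cd55 the highest r was 0.748 with Capn11. The points share depth and LPS status, so the values describe likeness over these libraries only.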

How the data were processed

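Per the labels' protocols, ribosome-bound RNA was sequenced with the Ion AmpliSeq mouse kit. The authors deposited RPM per amplicon, and each column sums to 1000000. The submitters' processing notes name mm10 and the Transcriptome Analysis Console without a role. Counter and strand: not given in the sources used here. All non-zero RPM values were whole multiples of 1 read within 0.1 read, so reads were recovered. Gene names turned into dates (27) were restored. RPM was divided by TMM factors (edgeR 4.0.16), genes filtered by filterByExpr (minimum count 10, total 15), and log2(scaled RPM + 1) tested with limma 3.58.1 (trended prior) in R 4.3.3, all 8 libraries in 1 fit, Benjamini-Hochberg over 12820 genes, threshold 0.05. Fold changes on this scale understate those of low genes. Alternatives were RPM as deposited, pseudocounts 0.1 and 10, no filter, edgeR quasi-likelihood on the recovered reads, a Y-linked term, leaving out each library, and the 5 WT or 5 LPS libraries alone; those of the named other complement genes were added after seeing the data. Up to 6 called list genes per comparison, by size of change, could be named. Genes outside it (C4a, C3ar1, C5ar2, Itgam, C1q chains and those at 0) were chosen after their values were seen. Some items of the list are not reported here. Members and lists were chosen with earlier results of these data known. Scripts were tested on simulated data, with a spread that was set and not taken from these libraries. There, 60% of log2 changes of size 1 were recovered for LPS against saline in WT, so changes of that size can be missed. Reads carry no molecular identifiers, so floors cover counting error only. Gene bounds are mm10 (GENCODE M21).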

Additional observations from a re-analysis of the deposited data

Results flagged for a closer look

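The LPS effects of the genotypes differed, by the interaction term of the limma fit, for 2 of the 20 other complement genes tested, a share below the 18.5% of all genes called. This term is also the contrast of the 2 runs of animal numbers in the labels, and both cannot be told apart. For Cr1l the difference of log2 fold changes (SOCS3iKEO minus WT) was 1.38 (adjusted p = 0.0239), with both SOCS3iKEO LPS libraries above all others on the scaled values. As deposited it was 0.83 (adjusted p = 0.103), and WT saline library 2 at 50.9 RPM lay above both, at 45.8 and 50.2 RPM. It was past the threshold under 8 of 13 alternatives and lost without WT saline library 1 (0.0791) or 2 (0.089) and without WT LPS library 2 (0.0553) or 3 (0.0583). For Itgb2 it was -1.58 (adjusted p = 0.0331), and -1.94 as deposited (adjusted p = 0.0118), with 6 of 13 alternatives past the threshold and adjusted p from 0.0118 to 0.104. It was lost without WT saline library 1 (0.0985) or 2 (0.104) and without WT LPS library 2 (0.0566) or 3 (0.0752). The SOCS3iKEO saline group holds 1 library, and both values rest on it.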

How the results depend on the processing

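C3 kept its calls for LPS under all 15 alternatives in WT and all 13 in SOCS3iKEO, and Serping1 under 13 of 13 in SOCS3iKEO. With no filter on low values, LPS in WT gave 1 member, 2 other complement genes and 1078 genes in all, and the interaction gave 843 genes. Between genotypes after LPS, RPM as deposited and the Y-linked term each left 1 member and 4 other complement genes. Between genotypes after saline, a pseudocount of 0.1 gave 1 gene and no filter 2. For the interaction a pseudocount of 10 gave 1 member, and RPM as deposited, a pseudocount of 0.1 and edgeR each gave 1 other complement gene.

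Leaving out each library gave, for LPS in WT, 1 to 3 members, 1 to 5 other complement genes and 348 to 2553 genes. For LPS in SOCS3iKEO it gave 2 to 3, 5 to 7 and 4839 to 6092, between genotypes after LPS 1 to 3, 6 to 9 and 4637 to 6747, after saline 0 to 0, and for the interaction 0 to 1, 0 to 4 and 238 to 3678. For LPS in WT, WT LPS library 3 left out gave 1093 genes. For the interaction, 238 and 754 genes were called without WT saline library 1 or 2, 971 and 1040 without WT LPS library 2 or 3, and 3678 without SOCS3iKEO LPS library 2. Without the lone SOCS3iKEO saline library the comparisons that use it have no value.

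Among the complement members tested, directions turned only for values that were not called. As deposited, these were Cd55 (-0.20) and Cd59a (-0.39) for LPS in SOCS3iKEO, Cd55 after LPS between genotypes (-0.18), and C2 (-0.19) and Serping1 (-0.01) in the interaction. Cd55 between genotypes after LPS was -0.04 with a pseudocount of 0.1 and -0.13 with the Y-linked term. Serping1 after saline was -0.17 with the Y-linked term, and C2 in the interaction was -0.17 with a pseudocount of 0.1 and -0.59 with edgeR. With a library left out, Cd55 ran from -0.48 to 0.00 in WT, from -0.22 to 0.43 in SOCS3iKEO, from -0.30 to 0.34 between genotypes after LPS and from -0.14 to 0.59 in the interaction. Serping1 ran from -0.10 to 1.48 between genotypes after LPS and from -0.26 to 1.33 in the interaction. Among the other complement genes, a called value turned too. After LPS, Cd93 was called higher in SOCS3iKEO than in WT by limma (log2 0.50, adjusted p = 0.0432). As deposited it was at -0.06 (adjusted p = 0.792). The cause of these turns was not tested.

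No paired analysis was possible because the labels give no shared replicate numbers. Groups of 1 to 3 mice, and low reads of C2, Cd55, Cfi, C4b and C5ar1 limit these results.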

Other observations

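Of 46 other complement genes in the table, 20 had enough reads to be tested and a further 20 had 3 reads or fewer in every library. Among the latter, 6 had 0 reads in every library, Hc, C8b and Colec10 included. C9 and Mbl2 had at most 1 read. C1qb, a chain of C1q made by macrophages, had 6 to 74 reads, while C1qa and C1qc had 0 to 3.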
